A study of Mus musculus with 88 samples.

Results

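The genes described are 9 genes of the cyclic AMP (cAMP) pathway that holds the mouse oocyte in prophase of meiosis: Gpr3, Adcy3, Adcy9, Pde3a, Prkaca, Prkacb, Prkar1a, Prkar2a and Akap1. Each gene was looked up among 38540 features of an oocyte transcriptome assembly, by the study's own feature name or else by the same-strand gene of GENCODE M21 whose span overlapped best, with a Jaccard overlap (shared span over joint span) of at least 0.3. A feature was found by this rule for 7 of the 9 genes, and Gpr3 and Adcy3 had none. RNA was measured in single germinal vesicle (GV) oocytes at full size, still in prophase arrest, from virgin C57BL/6Babr females that were 12 weeks old (young) or 44 to 54 weeks old (old) and otherwise untreated. The oocytes of each age came from a few mice, so many share a mouse, and which mouse an oocyte came from is not labelled. An SD over oocytes is therefore not one over animals. The study's sample sheet gives a chromatin configuration for 87 oocytes, which were used here. There were 30 young and 37 old oocytes with a non-surrounded nucleolus (NSN), the less mature form, and 12 young and 8 old oocytes with a surrounded nucleolus (SN), the more mature form. The configuration was predicted by the study from transcripts of the same oocytes and not seen under a microscope, so SN and NSN oocytes differ by construction in some transcripts, and whether any of the 9 genes was among those transcripts is not known here.

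In a fully grown oocyte the receptor GPR3 is active without an added ligand and, through the stimulatory G protein, keeps adenylyl cyclase making cAMP. Cyclic AMP binds the regulatory subunits of protein kinase A (PKA), frees the catalytic subunits and so keeps the cell cycle kinase CDK1 inactive. PDE3A is the main enzyme that breaks down cAMP in the oocyte. It is held back by cyclic GMP that enters from the cumulus cells through gap junctions, and its release starts the resumption of meiosis. A kinase anchoring proteins such as AKAP1 place PKA at a site in the cell, in the case of AKAP1 the outer mitochondrial membrane. NSN oocytes still transcribe, whereas SN oocytes are silent and hold stored transcripts.

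Each age group was treated as 1 sample because the mouse is not named, and no test was made between groups. A level is the gene's summed count in a group, scaled to 1000000 counts of that group (CPM). Their 95% intervals, exact Poisson for a level and conditional binomial for a ratio, cover counting error only, since reads without molecular identifiers are not independent molecules. CPM is a share of the polyadenylated RNA of an oocyte and cannot tell a lower amount of a transcript from a higher amount of the others. Total counts ran from 1579196 to 8231046 in young oocytes and from 976456 to 5448310 in old oocytes. Of 10 oocyte markers with a feature, Gdf9 was highest at 4377 CPM, and the summed level of these markers ran from 10562 to 24168 CPM over the oocytes. Of 12 granulosa and cumulus markers with a feature, 7 were under 1 CPM, among them Amh, Fshr and Foxl2. Their summed level ran from 31.4 to 131.9 CPM in young and from 28.6 to 148.9 CPM in old oocytes, and the highest of them was Nr5a2 at 25.99 CPM. Single markers differed between the ages: Gja1 was at 6.98 CPM in young and 3.44 CPM in old oocytes, Inha at 6.43 and 5.20, Hsd17b1 at 2.00 and 1.10, and Inhba, in the other direction, at 0.525 and 1.17. Markers differed between the configurations, too. In old SN and old NSN oocytes Kitl was at 17.4 and 10.0 CPM. For SN over NSN in old oocytes, the log2 ratios of oocyte markers ran from -0.76 (Oosp1) to 1.42 (Ddx4), with Gdf9 at 0.47. The part of the markers in the differences of the members was not tested. The numbers in the oocyte names form 6 consecutive runs, 3 young and 3 old, whose meaning the labels do not give. Since each run holds oocytes of 1 age, age and run cannot be told apart.

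The features matched their genes to different degrees. Akap1 (chr11:88830790-88864586, minus strand, GRCm38 for all positions) was named by the study, and its span had a Jaccard overlap of 1.00 with the gene. Adcy9 (chr16:4284669-4420723, minus), Pde3a (chr6:141249122-141502440, plus), Prkaca (chr8:83972946-83996445, plus), Prkacb (chr3:146729572-146813475, minus) and Prkar1a (chr11:109649405-109669710, plus) were matched by span, with overlaps from 0.98 to 1.00. The feature of Prkar2a (chr9:108662039-108750439, plus) overlapped its gene by 0.69 because it starts 27275 bases upstream and contains the whole of Slc25a20, a mitochondrial carnitine carrier on the same strand. Counts of Prkar2a and Slc25a20 therefore cannot be separated. The span of the Adcy9 feature also contains the same-strand gene Gm6142, and that of Pde3a contains Gm10400 and Gm43958. For Gpr3, the best feature (chr4:133209335-133220793, minus) reached 0.279 because it contains all of the short gene but starts 8257 bases upstream. This feature was added after the match was seen, stands outside the counts of members past a ratio or without overlap, and is called the Gpr3 feature. For 126 bases at its upstream end it overlaps the oppositely transcribed Cd164l2, at 409.8 CPM, with a Spearman correlation of 0.57 over the 87 oocytes. The Adcy9 feature overlaps an oppositely transcribed feature by 110 bases, and the counting was not stated to use strand.

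The catalytic subunits are close relatives, so their coding sequences are shown to let a reader judge whether reads could be assigned to the right gene. Over 1053 coding bases of equal length, Prkaca and Prkacb were identical at 80.2% of positions, and the longest stretch they shared without a difference, in any of their protein-coding transcripts, was 34 bases. The coding bases 123 to 322 around that stretch follow, 5′ to 3′, from GENCODE M21, with the 42 positions that differ in capitals.
Prkaca (chr8:83981186-83986921, plus): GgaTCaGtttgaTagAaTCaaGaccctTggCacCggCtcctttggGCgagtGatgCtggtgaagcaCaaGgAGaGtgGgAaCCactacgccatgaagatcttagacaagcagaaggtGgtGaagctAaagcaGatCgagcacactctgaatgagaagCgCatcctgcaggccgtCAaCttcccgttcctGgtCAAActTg
Prkacb (chr3:146751461-146755746, minus): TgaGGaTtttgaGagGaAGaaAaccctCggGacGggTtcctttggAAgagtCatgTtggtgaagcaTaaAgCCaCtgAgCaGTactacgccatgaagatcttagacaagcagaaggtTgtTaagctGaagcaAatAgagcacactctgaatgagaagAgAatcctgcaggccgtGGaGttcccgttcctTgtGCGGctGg
The 42 differences are spread over both sides of the shared stretch. A processed pseudogene of Prkaca, Prkaca-ps1 on chromosome X, shares at most 57 bases in a row with Prkaca, and no feature of the table overlaps it.

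Compared per kb of annotated exon, the members fell into a higher and a lower group. Over all oocytes, Akap1 was highest at 53.2 CPM per kb (SD over oocytes 9.94, n = 87). The Gpr3 feature followed at 34.5 CPM per kb, then Pde3a at 29.2, Prkar1a at 22.2 and Prkar2a at 16.6 CPM per kb. Prkar2a came to 9.41 CPM per kb when the exons of Slc25a20 were counted in. The other 3 were low, with Prkaca at 4.63, Adcy9 at 2.99 and Prkacb at 1.01 CPM per kb. Within the higher group the mean ± SD ranges of neighbours overlapped for the Gpr3 feature and Pde3a, for Pde3a and Prkar1a, and for Prkar1a and Prkar2a, and in the lower group they overlapped for Prkaca and Adcy9. Prkar2a was above Prkaca in 87 of 87 oocytes. The lengths are those of the annotation and may differ from those of the counted features, and with the longest annotated transcript Prkacb stood at 2.05 CPM per kb.

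Adenylyl cyclases make cAMP. Adcy3 was barely seen in this table, with only 2 fragments inside its gene. The fragment near its 3′ end (chr12:4207479-4211466, plus), which covers 4.96% of the gene's span, was at 2.64 CPM in young and 2.48 CPM in old oocytes. The other fragment (chr12:4173477-4195164, plus) had 10 counts in all 87 oocytes. Adcy9 was counted in every oocyte, with 3834 counts in all. It ran from 9.99 over a median of 14.7 to 23.4 CPM in young NSN oocytes and from 9.92 over 16.8 to 23.9 CPM in old NSN oocytes. In SN oocytes it ran from 10.3 over 14.5 to 24.4 CPM when young and from 9.02 over 16.8 to 18.4 CPM when old. All 4 ranges overlapped. The pooled level of Adcy9 was 15.2 CPM in young and 15.9 CPM in old oocytes, a log2 ratio of 0.07 (interval -0.03 to 0.16).

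Pde3a, which degrades cAMP, was the most strongly counted of the 9 genes and was lower in old than in young oocytes by a small margin. Its pooled level was 389.5 CPM in young and 350.1 CPM in old oocytes, a log2 ratio, old over young, of -0.15 (interval -0.17 to -0.14). Young NSN oocytes ran from 312 over a median of 373 to 541 CPM, and old NSN oocytes from 243 over 343 to 458 CPM. The ranges overlapped, and 10 of 37 old NSN oocytes lay above the median of the young NSN oocytes. Young SN oocytes ran from 336 over 370.4 to 448 CPM and old SN oocytes from 262 over 385 to 514 CPM, so that the medians stood in the other order there, while the pooled levels, 379.9 CPM in young SN and 354.9 CPM in old SN oocytes, did not (log2 ratio -0.10). The difference of the means of old and young oocytes was -0.61 of the SD over oocytes. By run, Pde3a was at 421, 385.0 and 359 CPM in the young runs and at 361, 385.3 and 316 CPM in the old runs, so the runs overlapped. The log2 ratio remained below 0 in 14 of 14 alternatives, from -0.22 to -0.06.

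The Gpr3 feature, for the receptor at the head of the pathway, stood at 95.7 CPM in young and 92.6 CPM in old oocytes (log2 ratio -0.05, interval -0.08 to -0.01). This direction held in 11 of 14 alternatives, which ran from -0.20 among oocytes whose names end in the suffix A, of unlabelled meaning, to 0.11 among those without it. Young NSN oocytes ran from 68.0 over a median of 97.9 to 148 CPM and old NSN oocytes from 60.4 over 93.8 to 133 CPM. Young SN oocytes ran from 63.7 over 88.3 to 167 CPM and old SN oocytes from 82.0 over 88.6 to 103 CPM. Neither age nor configuration separated the oocytes. Runs of the same age differed by more than the ages did, from 83.8 to 104.8 CPM among young runs and from 79.2 to 107.0 CPM among old runs. Within an oocyte, the log2 ratio of Gpr3 to Pde3a counts, each with 1 count added, had a median of -2.05 in young (SD 0.33, n = 42) and -1.88 in old oocytes (SD 0.30, n = 45). The difference of the medians, 0.17, was smaller than either SD.

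**Figure D1:**
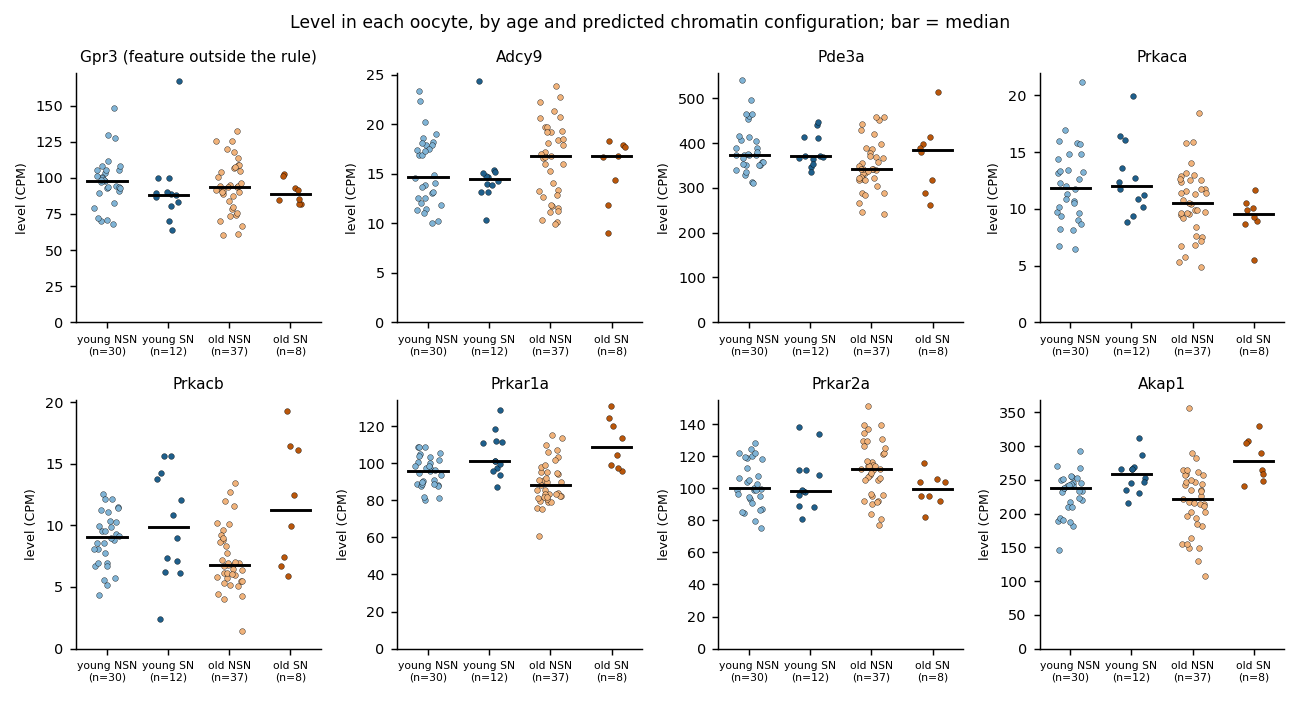
Level in CPM (vertical axis, from 0) of the Gpr3 feature and of the 7 genes found by the rule, with 1 point per oocyte and a bar at the median, for 30 young NSN, 12 young SN, 37 old NSN and 8 old SN oocytes. The 4 groups overlap in every panel, and the 8 old SN oocytes lie at 241 CPM or more for Akap1 and at 11.7 CPM or less for Prkaca.

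The catalytic subunits of PKA, encoded by Prkaca and Prkacb, carry the kinase activity that keeps the oocyte in arrest. Both were lower in old oocytes, Prkaca at 10.5 against 12.3 CPM (log2 ratio -0.23, interval -0.33 to -0.12) and Prkacb at 8.35 against 9.37 CPM (log2 ratio -0.17, interval -0.29 to -0.04). For Prkaca, young oocytes ran from 6.43 over a median of 11.9 to 21.1 CPM and old oocytes from 4.88 over 10.0 to 18.5 CPM. A minority of old oocytes, 11 of 45, lay above the young median. For Prkacb, young oocytes ran from 2.42 over 9.05 to 15.6 CPM and old oocytes from 1.46 over 6.93 to 19.3 CPM, and 13 of 45 old oocytes lay above the young median. An oocyte held 3 to 102 counts of either gene. The pooled levels of the 3 young runs and the 3 old runs did not overlap for either gene. Prkaca was at 11.9 to 12.9 CPM in young runs against 9.57 to 11.1 CPM in old runs, and Prkacb at 8.94 to 9.67 CPM against 7.85 to 8.93 CPM, a bare separation. These were 2 of 7 members lower and 0 higher. The share of all 11361 features with at least 5 CPM whose old runs lay wholly below the young runs was 6.94%, and the share wholly above was 6.29%. Among NSN oocytes alone, 1 of 7 was lower without overlap (Prkacb, 7.12 to 8.12 against 8.28 to 9.58 CPM) and 1 higher (Prkar2a, 107.4 to 116.8 against 99.3 to 106.6 CPM), where the shares of all features were 7.82% lower and 5.18% higher. Prkaca overlapped there. Prkacb levels had a Spearman correlation of 0.32 with total count over the 87 oocytes (0.18 in young and 0.25 in old), and Prkaca levels of 0.22, and the old oocytes were sequenced less deeply. The part of depth in these differences was not tested, and after thinning every oocyte to 900000 counts Prkaca had a log2 ratio of -0.26 and Prkacb of -0.22.

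In SN oocytes of old females, Prkaca was lower than in young SN oocytes and Prkacb was not. Prkaca in the 8 old SN oocytes was at 5.49, 8.69, 8.93, 9.24, 9.86, 10.0, 10.5 and 11.7 CPM. None of these reached the young SN median of 12.1 CPM, while 12 young SN oocytes ran from 8.87 to 19.9 CPM. The pooled log2 ratio, old over young within SN, was -0.48 (interval -0.72 to -0.23), and it was between -0.58 and -0.39 when any 1 old SN oocyte was left out. The same 8 oocytes had Prkacb at 5.88, 6.69, 7.39, 9.93, 12.5, 16.1, 16.5 and 19.3 CPM. They were spread over most of the range of all oocytes, and the log2 ratio of Prkacb, old over young within SN, was 0.25 (interval 0.01 to 0.49). It turned to -0.44 among oocytes with the name suffix A and to -0.079 without the third old run. Within an oocyte, the log2 ratio of Prkaca to Prkacb counts was above 0 in 3 of 8 old SN oocytes, 31 of 37 old NSN oocytes, 9 of 12 young SN oocytes and 20 of 30 young NSN oocytes. Its median was -0.12 in old SN oocytes (SD 0.80) and 0.55 in old NSN oocytes (SD 0.58).

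Prkacb had the largest SN to NSN ratio among the members in old oocytes, and it depended on which old SN oocytes were taken. Its pooled level was 12.2 CPM in old SN and 7.52 CPM in old NSN oocytes, a log2 ratio of 0.70 (interval 0.48 to 0.91). In young oocytes the levels were 10.3 and 9.01 CPM, a log2 ratio of 0.19 (interval 0.01 to 0.36). Within the old runs, SN oocytes were at 16.2 against 7.12 CPM in the first (2 SN oocytes), 6.62 against 8.12 CPM in the second (3 SN oocytes) and 14.5 against 7.35 CPM in the third (3 SN oocytes). The 3 SN oocytes of the second run are also the 3 whose names carry the suffix A, and among suffix A oocytes alone the log2 ratio was -0.08. Without the second old run the ratio was 1.04, and without the third 0.35.

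The regulatory subunits hold the catalytic subunits inactive until cAMP binds. Prkar1a was at 98.1 CPM in young and 93.4 CPM in old oocytes (log2 ratio -0.07, interval -0.11 to -0.03) and was among the most even of the members, from 80.4 over a median of 96.1 to 109 CPM in young NSN oocytes and from 60.8 over 88.4 to 115 CPM in old NSN oocytes. It was higher in SN oocytes, which ran from 87.3 over 101 to 129 CPM when young and from 96.1 over 109 to 131 CPM when old. Every old SN oocyte lay above the old NSN median, and 9 of 12 young SN oocytes lay above the young NSN median. The log2 ratio, SN over NSN, was 0.31 (interval 0.24 to 0.37) in old and 0.12 (interval 0.07 to 0.18) in young oocytes.

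Prkar2a, counted together with Slc25a20, was at 102.4 CPM in young and 109.4 CPM in old oocytes (log2 ratio 0.10, interval 0.06 to 0.13). Young NSN oocytes ran from 75.02 over 100.1 to 128 CPM and old NSN oocytes from 77.1 over 112 to 152 CPM. In SN oocytes it was at 102.6 CPM when young and 100.5 CPM when old, with ranges of 81.0 to 138 and 82.3 to 116 CPM. Only 1 of 8 old SN oocytes lay above the old NSN median. In the same oocyte, the log2 ratio of Prkar1a to Prkar2a counts was above 0 in 4 of 37 old NSN, 7 of 8 old SN, 10 of 30 young NSN and 6 of 12 young SN oocytes. The counts of both catalytic subunits over those of both regulatory subunits gave a median log2 ratio of -3.24 in young (SD 0.28) and -3.50 in old oocytes (SD 0.39). This difference of -0.26 lay within the SD over oocytes, and it was -0.30 within NSN oocytes, past the young SD of 0.27, and -0.14 within SN oocytes.

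Akap1, the mitochondrial anchor of PKA, was higher in SN than in NSN oocytes at both ages. Young NSN oocytes ran from 147 over a median of 237 to 292 CPM and young SN oocytes from 215 over 259 to 313 CPM. Old NSN oocytes ran from 107 over 221 to 356 CPM, and the 8 old SN oocytes were at 241, 248, 258, 265, 289, 305, 308 and 329.8 CPM. All 8 lay above the old NSN median, but the ranges overlapped. Pooled levels were 264.9 against 228.8 CPM in young (log2 ratio, SN over NSN, 0.21, interval 0.18 to 0.25) and 273.1 against 217.3 CPM in old oocytes (0.33, interval 0.29 to 0.37). Between the ages, Akap1 was at 239.2 CPM in young and 227.1 CPM in old oocytes, a log2 ratio of -0.07 (interval -0.10 to -0.05). Of 45 old oocytes, 21 lay above the young median. This direction held in 13 of 14 alternatives, and the log2 ratio was 0.01 among oocytes without a name suffix.

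Of the 7 members, Akap1 and Prkar1a were higher in SN than in NSN oocytes within each of the 6 runs, and none was lower in each. Over all features with at least 5 CPM, 12.1% were higher in all 6 runs and 7.5% lower. For Akap1 the log2 ratio within a run was between 0.11 and 0.26 in young and between 0.18 and 0.59 in old runs. For Prkar1a it was between 0.05 and 0.15 in young and between 0.14 and 0.42 in old runs. Prkaca and Prkar2a were lower in SN oocytes in 3 of 3 old runs, and in 1 and 2 of 3 young runs. The first young run holds a single SN oocyte.

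**Figure D2:**
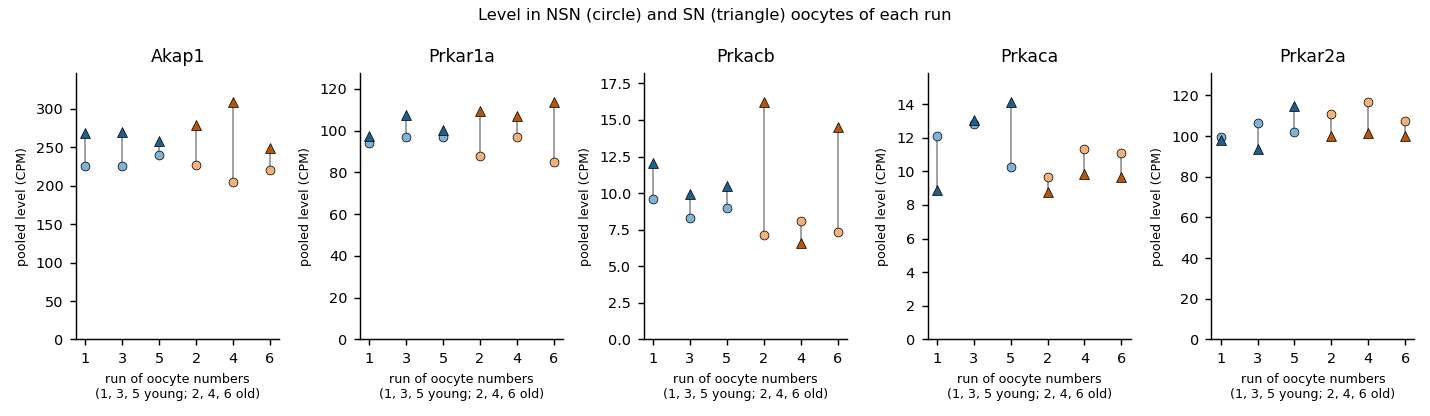
Pooled level in CPM (vertical axis, from 0) of Akap1, Prkar1a, Prkacb, Prkaca and Prkar2a in the NSN (circles) and SN (triangles) oocytes of each run of oocyte numbers, with young runs 1, 3 and 5 on the left and old runs 2, 4 and 6 on the right. Triangles lie above circles in all 6 runs for Akap1 and Prkar1a, while Prkacb goes the other way in old run 4, with 6.62 against 8.12 CPM.

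The promoters of the genes were searched for the response element TGACGTCA (CRE), through which cAMP also acts and which reads the same on both strands. It was searched together with its shorter form TGACG, or CGTCA on the other strand, both of which lie inside the full element. Windows of Akap1 and Prkar1a are printed because both genes were higher in SN oocytes within each run of these data. Whether the element has a part in this was not tested. Windows from 250 bases before to 50 bases after an annotated start were taken from RefSeq (GRCm38.p6), and 8 of the 9 genes, Gpr3 and Adcy3 included, had at least 1. Of all 32851 windows, 1.79% held the full element and 20.8% the shorter form. In the window nearest to the start of the feature, 6 of 8 genes held the shorter form and 0 of 8 the full element. For Adcy3 the start was that of its longer fragment, and nearest windows lay up to 39324 bases away. Those of Gpr3 and Prkar2a lay 8257 and 30104 bases away. Of the 6 nearest windows with the shorter form, that of Prkar1a had 43.3% G or C bases and the others 69% to 78.3%. The shorter form holds a CG, and no share over windows of like base content was computed. The 6 of 8 therefore cannot be set directly against 20.8%. Of the 6 Prkar1a windows, 2 at other starts held the full element. The 250 bases before the start are printed 5′ to 3′ for the nearest Akap1 window, the nearest Prkar1a window and the Prkar1a window that starts 1544 bases into the feature, with matches in capitals.
Akap1 (chr11:88864587-88864836, minus): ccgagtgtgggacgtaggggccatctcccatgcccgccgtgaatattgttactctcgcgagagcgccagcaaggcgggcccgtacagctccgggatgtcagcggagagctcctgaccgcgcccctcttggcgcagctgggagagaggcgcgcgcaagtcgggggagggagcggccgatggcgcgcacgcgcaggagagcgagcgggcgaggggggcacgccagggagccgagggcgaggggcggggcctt
Prkar1a, nearest start (chr11:109649113-109649362, plus): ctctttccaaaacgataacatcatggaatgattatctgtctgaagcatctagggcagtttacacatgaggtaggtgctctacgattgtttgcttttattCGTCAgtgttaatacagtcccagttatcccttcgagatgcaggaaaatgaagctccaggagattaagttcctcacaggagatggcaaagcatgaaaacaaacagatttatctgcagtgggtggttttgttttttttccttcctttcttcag
Prkar1a, start with the full element (chr11:109650699-109650948, plus): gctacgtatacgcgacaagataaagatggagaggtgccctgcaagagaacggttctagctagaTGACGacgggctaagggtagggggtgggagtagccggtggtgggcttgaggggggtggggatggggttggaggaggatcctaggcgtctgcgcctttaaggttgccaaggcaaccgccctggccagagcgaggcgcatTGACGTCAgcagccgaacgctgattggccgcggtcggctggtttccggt
The nearest Akap1 window held no match. The nearest Prkar1a window held 1 match to the shorter form, 151 bases before its start, and the other Prkar1a window held the full element 49 bases before its start. A match is a description of letters and not of binding.

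The members were set against all features by how many passed a ratio of 1.2 (a log2 ratio of 0.26 in size) in each comparison. The 5 comparisons share oocytes, so they are not independent of each other, and each uses the same 11361 features with at least 5 CPM over all oocytes, which include all 7 members. For old over young, 0 of 7 members were past 1.2-fold in either direction, where 1.83% of features were higher and 4.89% lower. The median log2 ratio of the members was -0.07 (from -0.23 to 0.10), beside -0.01 for all features. Within NSN oocytes the count was again 0 of 7, where 2.07% of features were higher and 6.26% lower, and Prkacb lay just short of the limit at -0.26 (interval -0.41 to -0.11). Within SN oocytes 1 of 7, Prkaca, was lower and 0 were higher, where 10% of features were lower and 10.5% higher. For SN over NSN, 0 of 7 members were past 1.2-fold in young oocytes, where 13.3% of features were higher and 6.95% lower. In old oocytes 3 of 7, Prkacb, Akap1 and Prkar1a, were higher and 0 lower, where 22.6% of features were higher and 19.2% lower. The median log2 ratio of the members was 0.12 in young and 0.02 in old oocytes for SN over NSN, beside 0.00 and -0.01 for all features.

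**Figure D3:**
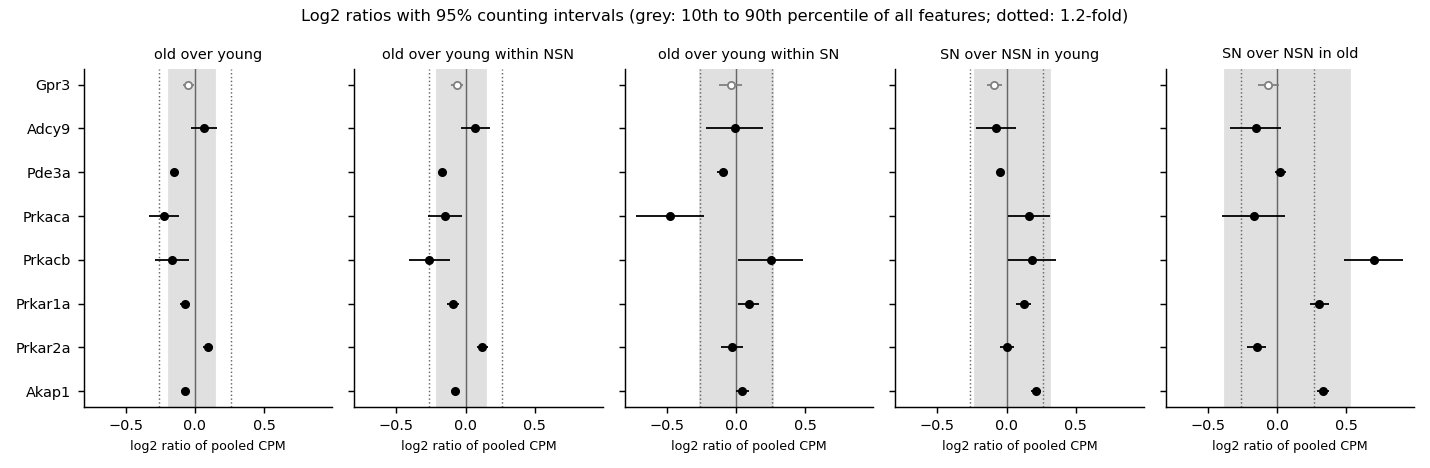
Log2 ratio of pooled CPM (horizontal axis) for the 7 members (black) and the Gpr3 feature (open) in 5 comparisons, with 95% counting intervals, the 10th to 90th percentile of all features in grey and dotted lines at 1.2-fold. Prkaca at -0.48 within SN, and Prkacb at 0.70, Akap1 at 0.33 and Prkar1a at 0.31 for SN over NSN in old oocytes, lie past the dotted lines.

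The members differed in how much their levels varied from oocyte to oocyte. Spread was taken as the coefficient of variation (CV) of scaled counts less the part due to counting. What remains can hold differences of amplification, run and mouse, which were not separated. Akap1 had a CV of 12.2% in young and 22.4% in old oocytes, a log2 ratio of squared CV of 1.76, which was higher than that of 95.7% of features. Prkar1a was the most even in young oocytes, with 8.79% in young and 13.2% in old. Prkacb had 24.95% and 36.7%, Pde3a 13.2% and 16.99%, and Prkar2a 13.04% and 13.9%. The other direction was seen for Prkaca, with 20.4% in young and 17.5% in old, and for Adcy9, with 16.01% and 15.0%. The Gpr3 feature, too, was more even in old oocytes, at 15.1% against 19.7%. Thus 5 of 7 members had a larger spread in old oocytes, where 74.3% of features did. After thinning, Adcy9 changed sides (11.7% in young and 23.9% in old), which made 6 of 7, where 69.6% of features had a larger spread in old oocytes. Thinning also moved the log2 ratio of squared CV of Prkar2a from 0.19 to 0.86 and that of Prkaca from -0.44 to -1.20. Within NSN oocytes the log2 ratio of squared CV was 1.69 for Akap1 and 0.28 for Pde3a.

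**Figure D4:**
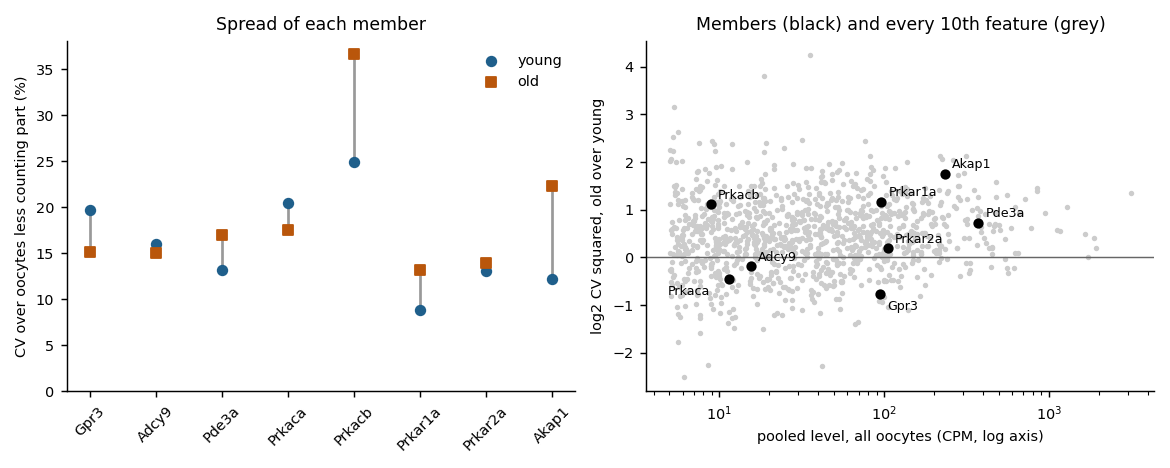
Left, CV over oocytes less its counting part, in percent, for each gene in young (circles) and old (squares) oocytes. Right, log2 ratio of squared CV, old over young, against pooled level (log axis) for the members and the Gpr3 feature (black) and every 10th feature (grey). Akap1 is highest of the members at 1.76 and the Gpr3 feature lowest at -0.76.

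Over 28 pairs of the 8 features, Spearman correlations over the 87 oocytes ran from -0.20 (Prkar1a and Prkar2a) to 0.28 (Adcy9 and Pde3a). These oocytes share library depth and composition, and weak values in sparse counts are no finding. The named features most like the Gpr3 feature over the oocytes, among 4155 features with at least 50 CPM, were Lrp5 (0.76), Orai1 (0.71) and Rnf122 (0.69). Those most like Pde3a were Dop1a (0.77), Prrc2c (0.74) and Mki67 (0.73), among 4154 features.

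Among 65 other genes of the pathway and its inputs, 50 had a feature and 37 had at least 5 CPM. Highest per kb were Gja4, the connexin of oocyte gap junctions, at 469.8 CPM per kb, Wee2, the oocyte kinase that inhibits CDK1, at 185.4, and Rgs2, a regulator of G protein signalling, at 161.9. Pooled levels in young and old oocytes were 797 and 785 CPM for Gja4, 583 and 581 CPM for Wee2, and 592 and 582 CPM for Rgs2. For old over young, 11 of 37 were higher and 26 lower, with a median log2 ratio of -0.04, and 0 were past 1.2-fold upwards and 2 downwards. Of all features, 1.83% were past it upwards and 4.89% downwards, so the counts of 0 and 2 are near the background. The median over all features was -0.0062, and the 11 higher and 26 lower were not set against a share of all features. The 2 past it downwards were Pde7b, a cAMP phosphodiesterase, and Adcy1, a calcium-responsive cyclase. Pde7b was at 4.10 in old against 8.67 CPM in young oocytes (log2 ratio -1.08), and Adcy1 at 9.87 against 11.9 CPM (-0.27). Both features overlap a feature on the other strand.

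Split by configuration, more of these genes were past 1.2-fold, as were more of all features. Within NSN oocytes 0 of 37 were higher by 1.2-fold in old oocytes and 3 lower (Pde7b, Adcy1 and the anchor Akap13, the last at a log2 ratio of -0.29). Within SN oocytes 1 was higher (Adcy1, 0.45) and 8 lower, the largest in size being Pde7b (-1.53), the anchor Akap6 (-0.73), the G protein subunit genes Gnb2 (-0.47) and Gnai2 (-0.39) and the cAMP-activated exchange factor Rapgef3 (-0.39). By the same limit, 2.07% of all features were higher and 6.26% lower within NSN, and 10.5% higher and 10% lower within SN oocytes. The 8 of 37 lower within SN oocytes were thus a larger share than that of all features, which was not tested. For SN over NSN, 4 of 37 were higher and 2 lower in young oocytes, and 10 were higher and 8 lower in old oocytes. Of all features, 13.3% were higher and 6.95% lower in young, and 22.6% and 19.2% in old oocytes, so the counts lie near the background in old oocytes. Adcy1 stood at 20.4 CPM in SN against 8.52 CPM in NSN oocytes of young females (log2 ratio 1.26) and at 27.8 against 6.06 CPM in old females (2.20). Pde7b was lower in SN oocytes, at -1.37 in young and -1.73 in old females. Also past 1.2-fold at both ages were Gnai2, lower at -0.39 and -0.52, and higher Pde1c, a calmodulin-dependent phosphodiesterase, at 0.36 and 0.52, and Pkib, a PKA inhibitor, at 0.41 and 0.38. Akap6 was higher in young SN oocytes (0.29) and lower in old SN oocytes (-0.65), at 4.47 to 7.41 CPM. Gnb2 (-0.72) and the PKA inhibitor Pkig (-0.57) were lower in old SN than in old NSN oocytes. Of 9 anchors with at least 5 CPM, 4 were higher by 1.2-fold in old SN than in old NSN oocytes and 1 lower, beside the 22.6% and 19.2% of all features.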

How the data were processed

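Polyadenylated RNA of single oocytes was made into Smart-seq2 cDNA in scM&T-seq. After trimming and HiSat2 alignment to GRCm38, the authors deposited raw counts of reads per oocyte transcriptome feature, without normalisation. The counting tool and strand setting are not given in the sources used here. Totals of 87 of 88 oocytes matched the study's sample sheet, and that of old oocyte 15 did not. Columns of the authors' comparisons in the supplementary tables were not used.

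Members and lists were chosen with earlier results of these data known. Named were the members, the 3 list genes highest per kb, per comparison up to 6 list genes past 1.2-fold with the largest log2 ratio, and the 3 features most like Gpr3 and Pde3a. Pooled CPM, log2 ratios and exact 95% intervals were computed in Python 3.11.15 with scipy 1.17.1, dispersion with median of ratios size factors, and TMM factors with edgeR 4.0.16. The calculations were tested on simulated data. The pair Adcy3 and Adcy9 was not computed. Alternatives covered scaling, filters, thinning, oocytes, name suffix and runs, and leaving out single SN oocytes was added after seeing the data. A value counted as moved when a median log2 ratio changed by over 0.1, a count by over 1.5 times or a level per kb by over 25%, or when a member's log2 ratio left its interval.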

Additional observations from a re-analysis of the deposited data

How the results depend on the processing

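For old over young, 0 members were past 1.2-fold by pooled CPM, but 1 was after thinning to 900000 counts, 1 by the median over oocytes and 2 among suffix A oocytes. Within NSN oocytes the count of 0 became 1 under each of thinning, the median over oocytes and suffix A, and 0 to 1 when a run was left out. Within SN oocytes the count of 1 became 0 at 1.5-fold, 2 without old oocyte 15, 2 after thinning, 2 among oocytes with suffix A and 2 among those without, and 1 to 2 when a run was left out. The median over members there was 0.10 by the median over oocytes. For SN over NSN in young oocytes, the count of 0 became 3 among oocytes without a suffix, and the median was 0.022 by the median over oocytes. In old oocytes the count of 3 became 1 at 1.5-fold, and the median of 0.02 became 0.17 by the median over oocytes, 0.20 among suffix A oocytes, -0.12 among those without, and -0.071 to 0.20 when a run was left out. Prkacb for SN over NSN in old oocytes reversed to -0.083 among suffix A oocytes. For the settings above no share of all features is given here, so the changed counts cannot be set against a background. With features of at least 1 CPM, 4.47% were higher and 10.3% lower for old over young, and 14.3% and 24.6% without a filter. In all, 133 of 157 recomputed summary values and 397 of 528 recomputed single log2 ratios remained within the limits. TMM or size factors shifted the median of all features by at most 0.05. The causes of these shifts were not tested. No paired analysis was possible because young and old oocytes share no replicate numbers. SN and NSN oocytes of an age share some numbers, with and without the suffix A, but the labels do not say what a shared number means, and they were compared within runs. Prkaca, Prkacb and Adcy9, with 3 to 115 counts in an oocyte, are limited most by depth.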

Other observations

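Old oocyte 48A, to which the study's sample sheet gives no configuration, was left out of the 87 oocytes compared above and entered only the alternative with all 88 oocytes, where the log2 ratio of Pde3a, old over young, was -0.19. Its Pde3a level was 71.3 CPM (256 counts), where the other 45 old oocytes ran from 243 to 514 CPM, and its Gpr3 feature level was 39.6 CPM, where they ran from 60.4 to 133 CPM. Its other members lay inside the range of the old oocytes, with Akap1 at 225.2, Prkar2a at 98.9, Prkar1a at 64.7, Prkaca at 13.4, Adcy9 at 12.5 and Prkacb at 4.18 CPM.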
